A study of Mus musculus with 2 samples.

Results

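Adenylyl cyclases are the enzymes that turn ATP into the second messenger cAMP, and the 9 membrane-bound forms of the mouse are encoded by Adcy1 to Adcy9. These 9 genes, of 21851 protein-coding genes, were chosen by name. Their peaks were all DNase-seq peaks that touched a gene body or its flanks of 10 kb, which gave 122 of 144270 peaks in replicate 1 and 128 of 124426 in replicate 2. DNase I cuts DNA that nucleosomes or bound proteins leave exposed, so a peak marks an accessible site, and a footprint is a short stretch inside it that was cut less. The tissue was labelled as hippocampus layer, with no layer named, from male B6CASTF1/J mice (F1 hybrids of C57BL/6J and CAST/EiJ) aged 8 to 10 months. The mice formed 1 group with 2 biological replicates, and each replicate pooled 2 biosamples. No second condition and no treatment was stated. The donor label is the same in both, and the sources used here do not say if any animal went into both pools. The spread between them may therefore be technical, and a site can be weak because few cells open it or because it is little open in each cell, which bulk tissue cannot tell apart.

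The membrane-bound cyclases are switched on by the stimulatory G protein, and they differ in what else controls them. Calcium bound to calmodulin stimulates the forms encoded by Adcy1, Adcy3 and Adcy8, and Adcy1 and Adcy8 in particular couple calcium entry at synapses to cAMP and are known for their part in long-term potentiation and memory in the hippocampus. The products of Adcy2, Adcy4 and Adcy7 respond to G protein beta-gamma subunits, those of Adcy5 and Adcy6 are inhibited by calcium, and the product of Adcy9 is barely stimulated by forskolin. The cAMP they make acts through protein kinase A, the exchange factors Epac, cyclic nucleotide-gated channels and the transcription factor CREB.

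Peak heights are in the authors' units, with a median over all peaks of 0.643 (replicate 1) and 0.639 (replicate 2). That is 98 and 99 times the smallest step by which heights differ. A promoter reached 1000 bp upstream and downstream from any start site of a protein-coding transcript, and a gene was called open when a peak touched it. Across all genes 62.6% were open in both replicates. Of lists of 6 marker genes each, 6 of 6 excitatory neuron genes and 6 of 6 astrocyte genes were open in both replicates. The same held for 5 of 6 oligodendrocyte, 3 of 6 inhibitory neuron, 1 of 6 microglia, 1 of 6 endothelial and 1 of 6 choroid plexus genes, and for 1 of 6 liver genes (Ttr, which is also a choroid plexus gene). The open genes differed in height. Their strongest promoter peaks had medians of 3.64 and 2.83 for excitatory neuron genes and 2.10 and 1.48 for oligodendrocyte genes. For astrocyte genes the medians were 0.856 and 0.801, and for inhibitory neuron genes 0.794 and 0.788.

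The accessible stretches that the results turn on are printed here from the mm10 reference, plus strand, with capitals for bases that lay under a footprint in both replicates. They are GC-rich promoter stretches just upstream of the starts of Adcy1 and Adcy2, and the tallest sites inside Adcy2, Adcy5 and Adcy9. The others are the tall site upstream of Adcy7, and the intronic sites of Adcy3 and Adcy2 that carry the palindromic cAMP response element TGACGTCA. The positions of all these stretches, in the same order, are chr11:7063221-7063432, chr13:68999601-68999840, chr13:68815801-68816060, chr16:35270501-35270660, chr16:4316161-4316380, chr8:88266241-88266440, chr12:4201541-4201760 and chr13:68997853-68998060. The Adcy1 stretch was cut before the end of its replicate 1 peak, on the side of the start.
Adcy1 promoter: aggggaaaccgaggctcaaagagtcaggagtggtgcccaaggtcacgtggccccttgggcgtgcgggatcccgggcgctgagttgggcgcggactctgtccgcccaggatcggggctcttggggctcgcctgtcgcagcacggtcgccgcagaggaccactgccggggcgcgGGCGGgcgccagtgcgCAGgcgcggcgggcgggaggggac
Adcy2 promoter: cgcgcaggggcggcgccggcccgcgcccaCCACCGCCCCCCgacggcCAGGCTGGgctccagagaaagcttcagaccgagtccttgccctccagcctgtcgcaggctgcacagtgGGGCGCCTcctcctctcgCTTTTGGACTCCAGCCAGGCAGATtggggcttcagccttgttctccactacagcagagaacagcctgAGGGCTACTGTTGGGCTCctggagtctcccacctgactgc
Adcy2 intron 3: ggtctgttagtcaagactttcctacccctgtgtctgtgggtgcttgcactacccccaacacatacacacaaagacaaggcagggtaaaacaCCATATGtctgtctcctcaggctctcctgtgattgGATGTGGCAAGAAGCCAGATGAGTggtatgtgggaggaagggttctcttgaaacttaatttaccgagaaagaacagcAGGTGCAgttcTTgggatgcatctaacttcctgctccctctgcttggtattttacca
Adcy5 intron 5: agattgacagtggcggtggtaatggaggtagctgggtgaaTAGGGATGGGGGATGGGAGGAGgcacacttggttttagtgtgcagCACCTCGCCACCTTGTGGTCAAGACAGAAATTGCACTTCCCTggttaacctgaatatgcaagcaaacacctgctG
Adcy9 intron 4: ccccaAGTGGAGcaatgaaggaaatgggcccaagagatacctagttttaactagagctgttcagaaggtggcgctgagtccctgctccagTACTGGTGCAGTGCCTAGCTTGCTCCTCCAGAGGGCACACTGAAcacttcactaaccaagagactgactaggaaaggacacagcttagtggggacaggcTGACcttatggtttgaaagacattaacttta
Adcy7 upstream: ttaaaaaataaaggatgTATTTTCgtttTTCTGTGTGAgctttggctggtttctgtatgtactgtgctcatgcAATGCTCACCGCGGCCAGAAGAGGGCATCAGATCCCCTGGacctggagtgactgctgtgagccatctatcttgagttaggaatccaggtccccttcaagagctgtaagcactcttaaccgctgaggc
Adcy3 intron 11: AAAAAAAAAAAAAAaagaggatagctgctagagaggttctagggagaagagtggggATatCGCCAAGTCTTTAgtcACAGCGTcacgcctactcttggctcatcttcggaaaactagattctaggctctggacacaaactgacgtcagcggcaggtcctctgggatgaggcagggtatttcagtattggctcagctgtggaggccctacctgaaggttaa
Adcy2 intron 1: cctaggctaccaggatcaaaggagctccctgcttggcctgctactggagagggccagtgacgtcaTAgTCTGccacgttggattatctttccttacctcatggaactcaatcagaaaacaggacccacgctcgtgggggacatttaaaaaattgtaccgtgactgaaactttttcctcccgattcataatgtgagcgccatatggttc

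Promoters were open in both replicates at 6 of the 9 cyclase genes, against the 62.6% of all genes given above. They were Adcy1, Adcy2, Adcy3, Adcy5, Adcy8 and Adcy9, so all 3 calcium-stimulated genes were open and 3 of the 6 others. With the shorter, stricter peak list 5 of 9 were open in both, against 58.0% of all genes, since Adcy1 had no promoter peak in replicate 2 there. Most of these promoter peaks were low. In each replicate 5 of the 6 lay under the median of open promoters, which was 3.59 in replicate 1 and 2.89 in replicate 2, and Adcy9 lay above it.

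Among the calcium-stimulated forms, the promoter peak of Adcy1 (ENSMUSG00000020431.5, chr11:7063489-7178506, plus strand) had a height of 1.10 in replicate 1 and 1.02 in replicate 2, a mean of 1.06 ± 0.0582 (SD, n = 2). Adcy8 (ENSMUSG00000022376.8, chr15:64697084-64922296, minus strand) had 1.19 and 0.956, a mean of 1.08 ± 0.169 (SD, n = 2). Adcy3 (ENSMUSG00000020654.15, chr12:4133103-4213525, plus strand), whose product serves odour signalling and neuronal cilia, had 1.34 and 1.31, a mean of 1.32 ± 0.0198 (SD, n = 2). Both values of Adcy3 were above those of Adcy1 and Adcy8, which overlapped each other. Among all open promoters, these 3 genes ranked between the 15.7 and 23.4 percentiles.

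Among the other forms, Adcy9 (ENSMUSG00000005580.11, chr16:4287529-4420498, minus strand) had the tallest promoter peak of the family, 3.79 and 3.12, a mean of 3.45 ± 0.472 (SD, n = 2). Adcy2 (ENSMUSG00000021536.7, chr13:68620043-68999541, minus strand) had 1.79 and 1.16, a mean of 1.47 ± 0.450 (SD, n = 2). Adcy5 (ENSMUSG00000022840.9, chr16:35154877-35305738, plus strand), whose product dominates in the striatum, had 1.55 and 1.16, a mean of 1.35 ± 0.278 (SD, n = 2). Both values of Adcy9 exceeded every value of the other members, at the 52.2 and 53.3 percentiles of open promoters. Adcy3, Adcy5 and Adcy2, which stand next to each other in the order of means, did not differ beyond their spread.

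**Figure D1:**
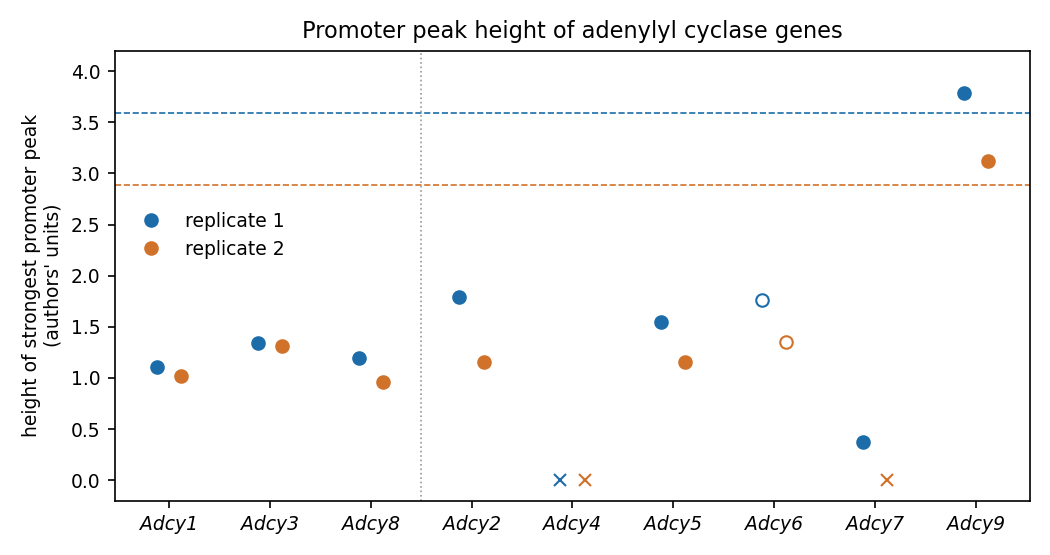
Height of the strongest promoter peak (authors' units) of each cyclase gene in replicates 1 and 2, with the 3 calcium-stimulated genes left of the dotted line. Dashed lines are the medians of open promoters in each replicate, crosses mark no promoter peak, and open circles show Adcy6 with a wider set of start sites. Adcy9 alone lies above the median of its replicate, at 3.79 and 3.12.

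The remaining genes were Adcy4, Adcy6 and Adcy7. Adcy7 (ENSMUSG00000031659.13, chr8:88272403-88329962, plus strand), best known from immune cells, had a promoter peak of 0.374 in replicate 1 and none in replicate 2, a pattern found in 2.27% of all genes. That peak ranked at the 1.95 percentile of open promoters. Adcy4 (ENSMUSG00000022220.14, chr14:55769057-55784095, minus strand) had none in either replicate, and its nearest peak lay 2482 and 2462 bp from a coding start, mainly in intron 4, with heights of 0.879 and 1.02. Its 5′ end had the lowest CpG observed/expected ratio of the 9 genes, 0.441, against 0.623 to 0.929 in the others.

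Adcy6 (ENSMUSG00000022994.9, chr15:98589973-98610076, minus strand) had no promoter peak when starts came from the basic GENCODE set, in which the nearest peak was 1708 bp away. Coding starts of the comprehensive set lie 492 and 536 bp from that peak (chr15:98609341-98609540). It then counted as the strongest promoter peak, with 1.76 and 1.35, a mean of 1.55 ± 0.289 (SD, n = 2). A lower peak, with 0.558 and 0.562, covered these starts themselves in both replicates. With that set, 7 of 9 cyclase genes were open in both replicates, against 63.3% of all genes. Adcy6 was then above Adcy5 in both replicates, and above Adcy2 in replicate 2 only.

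The starts of Adcy2, Adcy5, Adcy8 and Adcy9 held several peaks each. Within 3 kb of the 5′ end, Adcy8 had 6 peaks in replicate 1 and 8 in replicate 2, which covered 2487 and 2326 bp. Adcy2 had 6 peaks in each replicate, Adcy5 had 7 and 4, Adcy9 had 5 and 4, and Adcy3 had 3 in each. Open genes had a median of 2 such peaks, and 4.67% of them in replicate 1 and 3.82% in replicate 2 had at least 6, while 0.863% in replicate 2 had at least 8. Some listed peaks of Adcy2 and Adcy8 overlap each other in both replicates. With overlapping peaks merged, there were 5 and 6 stretches at Adcy8 and 5 and 5 at Adcy2. Peaks that abut without overlap, as some at Adcy8 do, were counted apart. The counts over all open genes were not merged. Adcy1 differed, with a single peak of 238 and 211 bp at its start.

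The promoters of the calcium-stimulated genes were lower by their medians than the open promoters of the others. In replicate 1 they spanned 1.10 to 1.34 with a median of 1.19, and the 4 open genes of the others spanned 0.374 to 3.79 with a median of 1.67. In replicate 2 the spans were 0.956 to 1.31 with a median of 1.02, and 1.16 to 3.12 with a median of 1.16 over 3 genes. The ranges overlapped in both replicates. Genes without a promoter peak have no value here, and all of them were in the other group. The medians therefore compare open promoters only. With the replicates averaged per gene, the log2 ratio of the group medians was -0.46, and without replicate 1 it was -0.18. Genes are not replicates of a condition, so no test was made between the groups.

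Beyond the promoters, most cyclase peaks lay in introns, and in most of the genes open in both replicates the tallest site was not the promoter. Of 122 and 128 peaks, 73 and 82 lay in introns, 21 and 20 in the members' own promoters, 11 and 11 over exons, 7 and 5 in the upstream flank and 8 and 7 in the downstream flank. The windows are gene bodies plus flanks, and the intronic share over the windows of other genes was not computed. Intronic peaks per gene ranged from 1 each in Adcy4, Adcy6 and Adcy7 to 23 in Adcy2 in replicate 1. In replicate 2 they ranged from 0 in Adcy4 to 27 in Adcy9. The remaining 2 and 3 peaks lay in promoters of another gene, Ltb4r2, next to Adcy4. Of the 6 cyclase genes that were at least 10 kb long and open in both replicates, 5 had their tallest peak outside their own promoter in both replicates, and Adcy9 did not. Over the 10413 genes of that kind, 30.9% did. Gene length, number of peaks and promoter height were not matched in that comparison.

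In replicate 1 the tallest of these sites was at chr13:68815801-68816060 in intron 3 of Adcy2, 183610 bp from the 5′ end, with heights of 3.47 and 2.64. In the stretch printed above it holds the E-box CAGATG, the form bound by NEUROD factors, under a footprint in both replicates. Intron 4 of Adcy9 held a peak of 3.37 and 3.36, the tallest of these sites in replicate 2 and near its promoter in height. Intron 5 of Adcy5 held a peak of 3.20 and 3.23, where the promoter had 1.55 and 1.16. A match to the core of the CTCF motif, CCA, AG and GGC with any 2 bases between them, stood there under a footprint in both replicates. CTCF is the zinc finger protein that anchors chromatin loops.

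Other members had their tallest site near or outside the gene's ends. Upstream of Adcy7 a peak with heights of 1.65 and 2.82 had its midpoint at -6062 bp from the 5′ end, and it too held a CTCF core under a footprint in both replicates. Adcy7 had no other peak above 0.637 in either replicate. The tallest site of Adcy8 lay in the downstream flank, with 2.52 and 2.87, followed by a site in intron 1 with 1.79 and 1.87. For Adcy6 the tallest were a downstream site with 1.98 and 2.08 and an upstream site with 1.90 and 1.81, and for Adcy1 an upstream site at -7768 bp with 1.61 and 1.23. In Adcy3 the tallest site over the replicates was in intron 16, with 1.91 and 1.30, although intron 11 was taller in replicate 2 with 1.47. The tallest peak in the Adcy4 window, 2.13 and 2.86, belonged to the promoter of Ltb4r2, a leukotriene receptor gene.

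**Figure D2:**
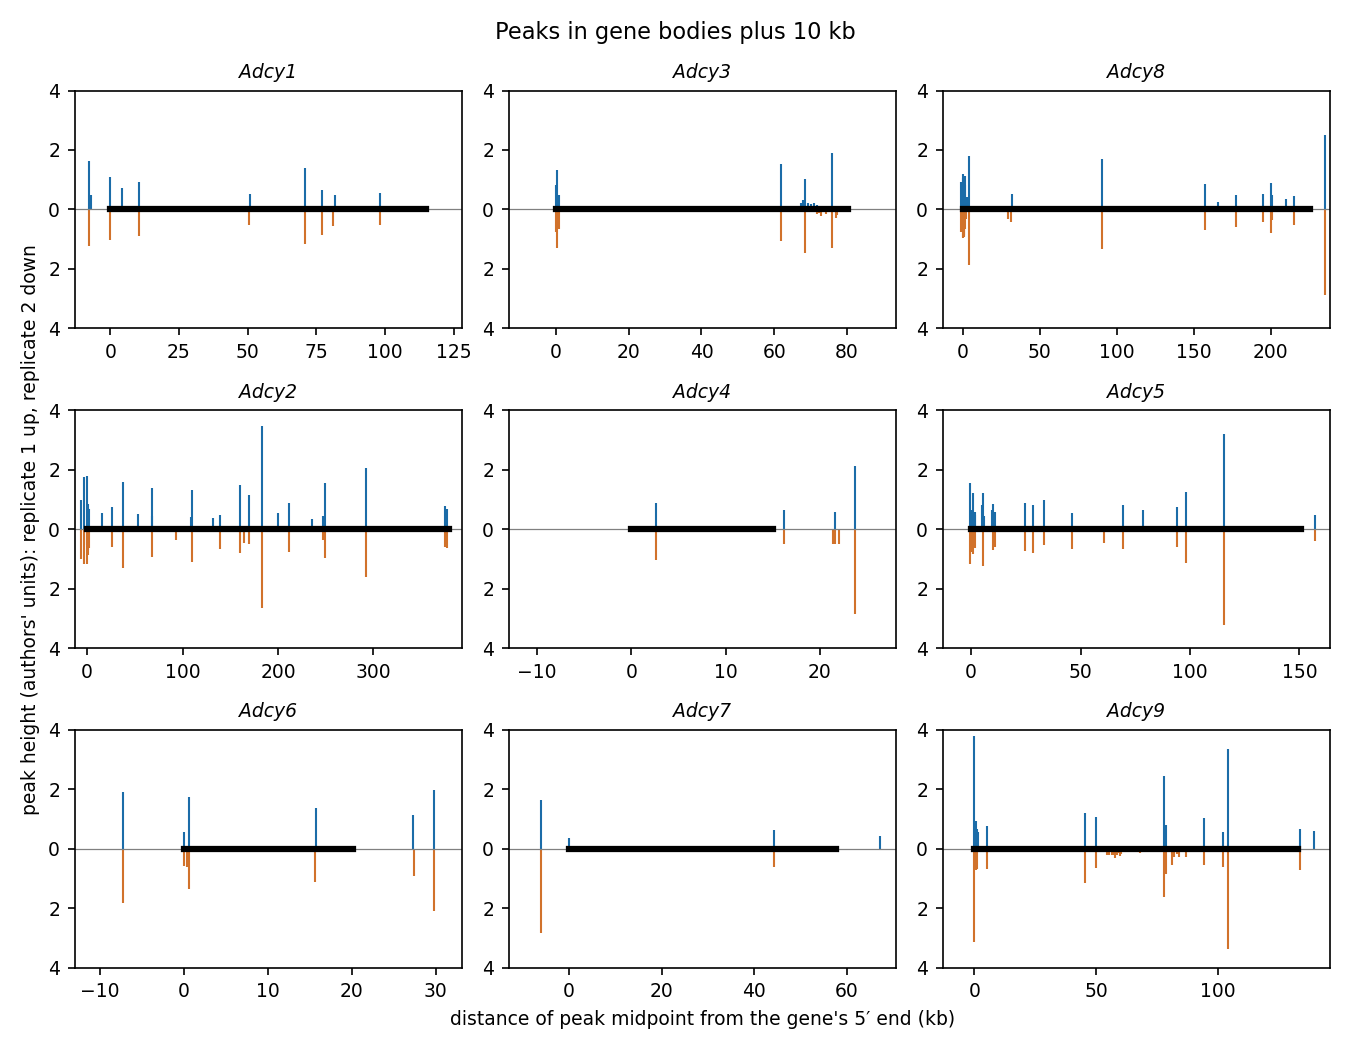
Every peak of the 9 windows by distance of its midpoint from the gene's 5′ end (kb, with the gene body as a black bar) and height (authors' units, replicate 1 upward in blue and replicate 2 downward in orange). The tall sites stand at the same places in both replicates, and the runs of low peaks in Adcy3 and Adcy9 do not.

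The number of peaks per length differed several-fold between the genes. In peaks per 10 kb of gene plus flanks, Adcy6 had 1.496 in replicate 1 and 1.75 in replicate 2, a mean of 1.62 ± 0.176 (SD, n = 2), and Adcy7 had 0.516 and 0.258, a mean of 0.387 ± 0.182 (SD, n = 2). Adcy2, the longest gene with 379499 bp, had 28 and 23 peaks and 0.701 and 0.576 per 10 kb. The median of all genes was 0.815 and 0.732. Adcy1 (0.741 and 0.593) and Adcy8 (0.734 and 0.775) were close to that median, and Adcy5 (1.35 and 0.995) was above it in both replicates. Among genes in its own decile of length, Adcy2 ranked at the 55.2 and 52.0 percentiles of peaks per 10 kb. Adcy1 ranked there at 58.5 and 53.5, Adcy8 at 58.2 and 71.9, and Adcy5 at 92.8 and 86.8. The window of Adcy4, with 1.14 and 1.71, included the peaks at Ltb4r2.

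The densities of Adcy9 and Adcy3 rested on runs of low peaks, meaning peaks under the 10th percentile of height, which was 0.269 in replicate 1 and 0.284 in replicate 2. Adcy9 had 15 peaks in replicate 1 and 32 in replicate 2, or 0.981 and 2.09 per 10 kb. In replicate 2, 17 low peaks of 0.116 to 0.258 lay within 32.4 kb of intron 3, of which 6 were at least 50% repeat sequence, and 0 of the 17 were found in replicate 1. Without low peaks Adcy9 had 0.98 per 10 kb in each replicate. At least 17 low peaks occurred in 0.124% of genes in replicate 2 and 0.133% in replicate 1.

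Adcy3 had 14 peaks, or 1.39 per 10 kb, in each replicate, yet they were partly different peaks. Replicate 1 held 6 low peaks of 0.131 to 0.210 within 4.52 kb towards its 3′ end, and replicate 2 held 8 low peaks of 0.0775 to 0.271 within 5.96 kb that began near the end of the first run. At least 6 low peaks occurred in 1.08% and 0.906% of genes. Without low peaks Adcy3 had 0.80 and 0.60 per 10 kb. What makes these runs was not tested.

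The calcium-stimulated genes had fewer peaks per length than the others by their medians, with ranges that overlapped. In replicate 1 the medians were 0.741 for them and 1.06 for the others, and in replicate 2 they were 0.775 and 1.35. The ranges were 0.734 to 1.39 against 0.516 to 1.496, and 0.593 to 1.39 against 0.258 to 2.09. The log2 ratio of the group medians over mean values was -0.78, without replicate 2 it was -0.52, and with the shorter, stricter peak list it turned to 0.033. The direction therefore does not hold across peak lists.

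**Figure D3:**
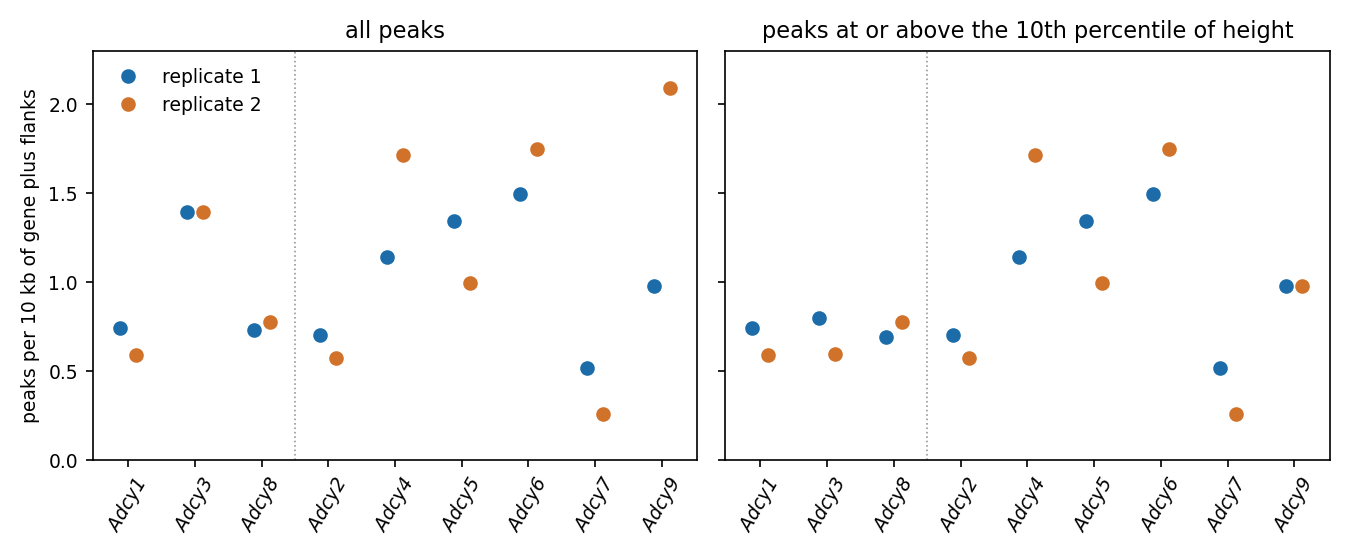
Peaks per 10 kb of gene plus flanks for each cyclase gene in replicates 1 and 2, for all peaks (left panel) and for peaks at or above the 10th percentile of height (right panel), with the calcium-stimulated genes left of the dotted lines. Without low peaks Adcy9 moves from 2.09 to 0.98 in replicate 2, and Adcy3 from 1.39 to 0.80 and 0.60.

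Most cyclase peaks were found again in the other replicate, and those that were not had a lower median height. In replicate 1, 91 of 122 peaks (74.6%) overlapped a peak of replicate 2, against 72.3% of all peaks. In replicate 2, 94 of 128 (73.4%) overlapped one of replicate 1, against 84.1% of all peaks. The median height of shared peaks was 0.925 and 0.804, and that of the others was 0.459 and 0.210. Of the 31 unshared peaks of replicate 1, 6 were low in the sense above, and the tallest reached 0.814. Of the 34 of replicate 2, 24 were low, and the tallest reached 0.594. At or above the 10th percentile of height, 90 of 115 (78.3%) and 93 of 103 (90.3%) were shared, against 77.2% and 88.0% of all such peaks. Of 7 and 25 low peaks, 1 and 1 were shared, against 27.2% and 47.2% of all low peaks.

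Footprints lay in most cyclase peaks. In replicate 1, 103 of 122 peaks (84.4%) held at least 1 footprint, against 77.9% of all peaks, and in replicate 2, 100 of 128 (78.1%), against 80.8%. For the calcium-stimulated genes the shares were 73.8% and 73.2%, and for the others 90% and 80.5%. At or above the 10th percentile of height they were 80.0% and 87.9% for the former and 90% and 90% for the latter, against 83.8% and 86.4% of all such peaks. Of 260 and 270 distinct footprints in cyclase peaks, 125 (48.1%) and 119 (44.1%) were overlapped in the other replicate, against 50.04% and 53.3% of all footprints in peaks.

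Heights of shared cyclase peaks moved both ways between replicates. Scaled to the median of all 101938 shared pairs, the 88 cyclase pairs had a median log2 ratio of replicate 2 to replicate 1 of -0.07, with an SD of 0.34 and a range from -1.03 to 0.96. As deposited, the heights had a median log2 ratio of -0.26. In replicate 2, 47 were lower and 41 higher. Beyond counting error alone were 28 of them (31.8%), against 30.2% of all pairs. That count was centred on the ratio of summed steps over all pairs, not on the median ratio used for scaling. Adcy2 had 15 of 20 pairs lower in replicate 2, with a median of -0.16, and the highest value of all belonged to the site upstream of Adcy7.

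Sites with a CTCF core stood mostly above the other cyclase sites in that ratio, a pattern looked at after the values were seen. Outside the promoters, 11 of 12 pairs with the core were relatively higher in replicate 2, with a median of 0.32, and the exception was a site downstream of Adcy4 with -0.23. Of the 60 pairs without it, 23 were higher, with a median of -0.10. The same split ran through the whole series, with 76.7% of all such pairs with the core higher in replicate 2 and 50.6% of those without it, so it is not particular to the cyclase genes. In all cyclase peaks the core was found in 15 (12.3%) and 17 (13.3%), against 7.56% and 8.48% of all peaks. Peak lengths and heights were not matched in that comparison.

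**Figure D4:**
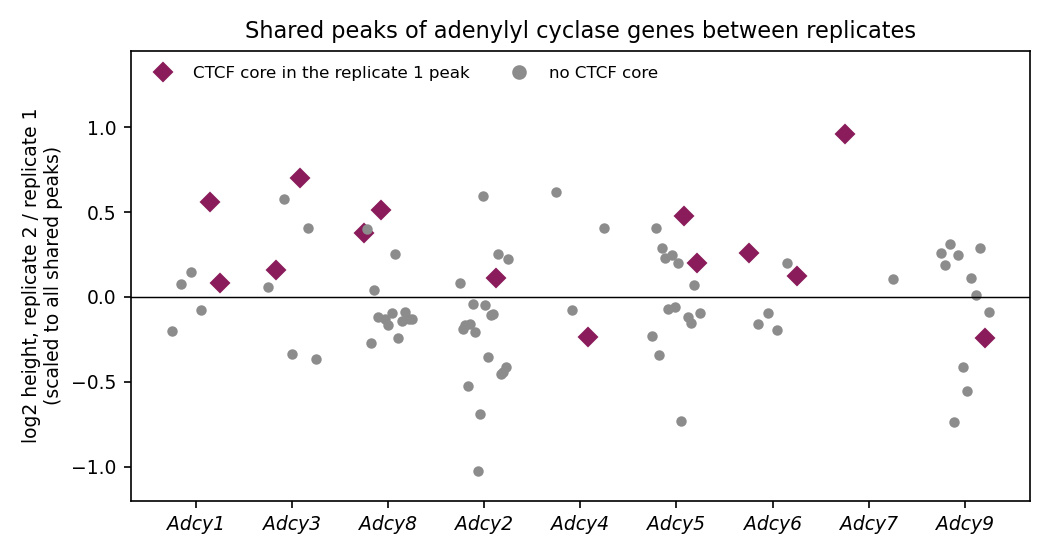
Log2 ratio of height, replicate 2 over replicate 1, for each of the 88 shared cyclase peaks by gene, scaled so that the median of all shared pairs is 0. Diamonds are sites with a CTCF core in the replicate 1 peak, and 11 of 12 of those outside promoters lie above 0. The topmost point, at 0.96, is the site upstream of Adcy7.

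The cAMP response element, the site that CREB binds, was present at a few cyclase sites. Its core TGACG, searched on both strands, was in 16 of 122 peaks (13.1%) and 18 of 128 (14.1%), against 12.3% and 12.8% of all peaks. The full palindrome TGACGTCA, which contains the core on each strand, was in 4 peaks of each replicate (3.28% and 3.13%), against 0.695% and 0.757% of all peaks. In replicate 1 the 4 peaks were 4 separate sites, and in replicate 2 they were 3, since overlapping peaks of Adcy2 share one. The 3 sites found in both replicates were intron 1 of Adcy2 (chr13:68997910-68997917), intron 11 of Adcy3 (chr12:4201680-4201687) and the promoter of Adcy8 (chr15:64923195-64923202). The site found in replicate 1 alone was a peak of 0.610 in the downstream flank of Adcy9 (chr16:4281041-4281242).

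At the Adcy8 promoter the palindrome touched a footprint in both replicates, and at the Adcy2 and Adcy3 sites in replicate 2 only, so it is printed there in lower case. The Adcy3 peak had heights of 1.03 and 1.47 and the Adcy2 peak 0.676 and 0.639. The box GGGCGG, bound by SP and KLF factors, was in 11 of 21 and 12 of 20 of the members' own promoter peaks, against 49.8% and 49.9% of all promoter peaks. In the Adcy1 stretch printed above, capitals fall partly on such a box.

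The E-box CAGATG was in a smaller share of peaks at the calcium-stimulated genes than at the other cyclase genes, a pattern noticed after the values were seen. It was in 6 of 42 peaks of replicate 1 and 1 of 41 of replicate 2 for the former, and in 21 of 80 and 23 of 87 for the latter, against 26.6% and 25.3% of all peaks. Among the shared pairs outside promoters it was in 1 of 22 and in 17 of 50, and most of those 17 lay at Adcy2 and Adcy5. Sites of 1 gene are not independent, and the difference was not tested.

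The rest of the cAMP pathway was open more often than the average gene, and its median promoter height was above that of the cyclases, though not in every role. Of 75 listed genes, 70 (93.3%) were open in both replicates, against 62.6% of all genes. The median promoter height was 2.50 in replicate 1 and 2.08 in replicate 2, where the 6 open cyclase genes had 1.44 and 1.16 and all open genes 3.59 and 2.89. The share was not compared with that of other lists.

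Upstream of the cyclases, 9 of 9 G protein genes were open, led by Gnaz (10.1 and 7.63) and Gnai2 (5.50 and 3.86), both of which encode inhibitory alpha subunits. Of the genes for Gs-coupled receptors and PACAP, 8 of 9 were open in both replicates. The highest were Vipr1 (2.51 and 2.13), a receptor for VIP and PACAP, and Adrb1 (2.48 and 1.64), a beta-adrenergic receptor, and Drd5, a dopamine receptor, was open in replicate 1 only, with 0.492. All 8 genes for calmodulin and for kinases that act on cyclases were open, with the calmodulin genes Calm3 (12.04 and 10.9) and Calm2 (7.93 and 7.43) in front. Adcy10, the soluble cyclase that bicarbonate activates, had no promoter peak in either replicate.

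Downstream, 6 of 6 protein kinase A subunit genes were open, led by the catalytic Prkaca (12.8 and 8.30) and the regulatory Prkar1a (4.67 and 4.15). All 10 anchor genes were open, with Akap8 (10.5 and 8.55) and Akap13 (8.05 and 7.01) highest, and so were all 8 genes of the CREB arm, with Creb1 (10.1 and 6.64) and its coactivator Crtc2 (8.79 and 5.88) highest. Other cAMP effectors were lower, with medians of 0.984 and 0.781, under the 1.44 and 1.16 of the open cyclase genes. Of the effector genes, 7 of 8 were open, among them Rapgef3 (2.29 and 1.74), which encodes an Epac. Popdc2, a cAMP-binding membrane protein, had no promoter peak.

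Of the phosphodiesterase genes, whose products break cAMP down, 14 of 16 were open in both replicates. Pde2a (3.26 and 3.22) and Pde4d (3.60 and 2.12) had the highest promoter peaks. Pde11a was open in replicate 2 only, with 0.426, and Pde4c had no promoter peak although its window held 20 and 13 peaks.

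**Figure D5:**
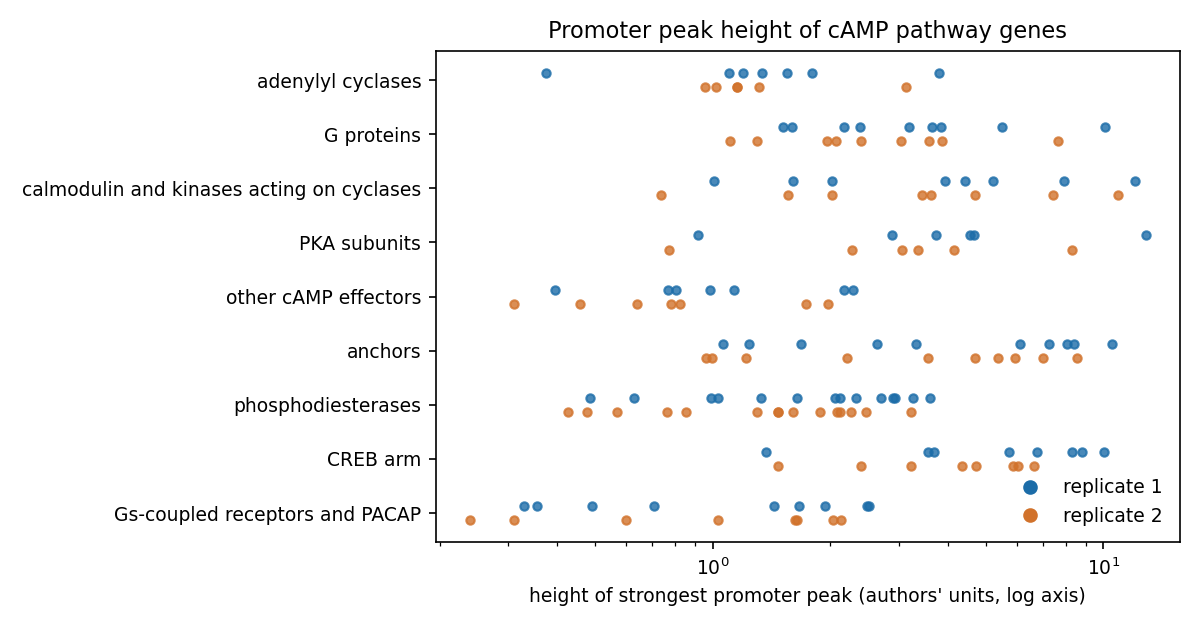
Height of the strongest promoter peak (authors' units, log axis) of the cyclase genes and of the other cAMP pathway genes by role, 1 point per gene and replicate. Genes without a promoter peak are not drawn. The cyclases lie between 0.374 and 3.79, below the highest G protein, calmodulin, kinase, anchor and CREB genes.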

How the data were processed

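DNase-seq of mouse hippocampus was deposited as 2 samples of 1 group. For each, the authors deposited 2 peak lists, footprints and a file of false discovery rates (q-values of cut rates, listed only up to 0.05). The deposited peak height (unit: signal) is the authors' value. Its scale is not stated, and heights under 200 steps were whole multiples, within 0.1 step, of a step of 0.00656 in replicate 1 and 0.00646 in replicate 2. A step was read as 1 cut, which is an assumption. The build was mm10 per the labels. The sources used here name no aligner, caller or version, and mapping of the CAST/EiJ allele was not analysed here.

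The longer list was used (144270 and 124426 peaks). The shorter one (87039 and 74088) was an alternative. The deposited footprints carry no measured score (1 constant in all rows), so they were not ranked. Genes and start sites came from GENCODE M21 (basic set). A peak was shared with at least 1 bp of overlap, pairs were mutual best overlaps, and counting error came from an exact two-sided binomial test of steps (level 0.05), which covers counting error only. Motifs were exact strings on both strands in whole peaks. With 1 group of 2 replicates no test between conditions was made and no p-value is given.

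The members, lists and isoform groups were chosen with earlier results of these data known. The text names all 9 members, the tallest promoter and other peak of each, and per pathway role the 2 genes with the highest mean promoter height and those with no promoter peak, plus, after their values were seen, the genes open in 1 replicate. A gene that this rule takes is not reported here. Functions were tested on simulated data. Tools were Python 3.11.15, numpy 2.4.6, pandas 2.3.3, scipy 1.17.1, samtools 1.23.1 and matplotlib 3.10.9.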

Additional observations from a re-analysis of the deposited data

How the results depend on the processing

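Of 46 recomputed values, 34 kept their direction and stayed within 1 SD (between replicates, or over the pairs for the replicate ratio) or, for counts of genes, within 1.5 times, 11 moved further and 1 reversed. The log2 ratio of median peaks per 10 kb, calcium-stimulated over other genes, was -0.78, reversed to 0.033 with the shorter list, and moved to -0.34 with no flank, -0.20 with flanks of 50 kb, -0.32 without promoters of other genes and -0.37 with peaks found in both replicates. Leaving out 1 replicate gave -0.80 to -0.52. The log2 ratio of promoter heights (-0.46), which leaves out genes without a promoter peak, gave -0.48 to -0.18 with 1 replicate left out. The share of cyclase peaks found in the other replicate (74.0%) moved to 65.5% with the shorter list, 64.4% when 50% of the peak had to be covered and 84.3% at or above the 10th percentile. The cause was not tested. The share with a cAMP response element core (13.6%) became 3.20% for the palindrome, which is a longer string, and 12.4% within 100 bp of the midpoint. Settings at or above the 10th percentile, in both replicates and with comprehensive starts were chosen after seeing the data. No paired analysis was possible because the series holds 1 group. Low peaks rest on fewer steps of height than most peaks, 12 to 42 in the runs of Adcy3 and Adcy9, which limits what their presence in 1 replicate shows. The shorter, stricter list still held 10 and 13 peaks in the Adcy3 window and 7 and 17 in the Adcy9 window.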

Other observations

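Of 10413 genes of at least 10 kb that were open in both replicates, those closest to each open cyclase gene in promoter height and peaks per 10 kb over the 2 replicates were named as a description of 4 values. Closest to Adcy1 were Ano4 (distance 0.161) and Cacna2d3 (0.168), to Adcy2 Rbfox1 (0.117) and Slco5a1 (0.142), and to Adcy3 Ankmy1 (0.0959) and Tmprss9 (0.117). Closest to Adcy5 were Rassf4 (0.0662) and Cacna1a (0.0682), to Adcy8 Gas2 (0.0647) and Tbc1d4 (0.0892), and to Adcy9 Cx3cl1 (0.166) and Trim3 (0.215). The distance is Euclidean on log2 values, each scaled to unit SD over these genes. The peaks per 10 kb of Adcy3, and of Adcy9 in replicate 2, include the runs of low peaks.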
